A study of Homo sapiens with 12 samples.

Results

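Control 697 cells grown with doxycycline were compared with control 697 cells grown without it. The libraries were chosen by title, as control cells with or without the drug and with no shRNA named: 2 treated and 2 untreated libraries, from sets 2 and 4, which are 4 of the 12 libraries in the series. 697, also called EU3, is a human B-cell precursor leukaemia line, and every library came from its ALDH-positive fraction, sorted for high aldehyde dehydrogenase activity with a fluorescent substrate. Per the design text, each set began with its own sort and had its own doxycycline treatment, so a treated and an untreated library of the same set share a sort. The other 8 libraries hold SH2 cells, which carry a doxycycline-inducible shRNA against the RNA-binding protein IGF2BP1 with a green fluorescent reporter, untreated and treated in sets 1 to 4. The labels call the control libraries a control for the drug. Whether those cells hold the scrambled shRNA of the protocol is not said, nor whether the treated control cells were sorted again for the reporter, and the labels give neither a dose nor a time. All cells are labelled as 1 line.

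Doxycycline is a tetracycline antibiotic that is widely used to switch on tetracycline-controlled transgenes. Tetracyclines block the bacterial ribosome, and at sufficient doses they also slow the related ribosome of mitochondria, which makes the subunits of the respiratory chain that the mitochondrial genome encodes. Cells can answer such a block through ATF4, a transcription factor of amino acid and stress responses, and control cells given the inducer alone serve to separate such drug effects from those of the induced shRNA.

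Reads were counted per gene at the transcript's 3′ end. The 4 control libraries held 2210291 to 3232769 reads assigned to genes and a count for 16114 to 17306 genes. The share of alignments that were not unique, and so were not counted, was lower in the treated than in the untreated library of set 2 (47.8% against 63.8%) and higher in set 4 (59.7% against 54.6%); its part in the results was not tested. Genes that define B-lineage cells were present in all 4 libraries, with CD79A at 534 to 796 and PAX5 at 141 to 201 CPM (read counts scaled to the library's size). The immunoglobulin kappa constant gene IGKC was at 847 to 1505 CPM in control cells and averaged 0.527 CPM in untreated SH2 cells, whereas the lambda constant gene IGLC2 was at 0.641 to 1.42 CPM in control cells and averaged 842 CPM in untreated SH2 cells, although all are labelled as the same line. Markers of T and NK cells, 18 genes of which 11 could be tested, summed to 1795 CPM untreated and 1976 CPM treated in set 2 and to 203 CPM untreated and 114 CPM treated in set 4. TRBC2, a T-cell receptor constant gene, was at 1130 and 1284 CPM in set 2 and at 121 and 70.7 CPM in set 4, untreated first. Summed markers of myeloid cells stayed between 3.62 and 12.8 CPM, those of red cell and platelet precursors between 1.45 and 1.91 CPM, and those of stromal cells between 44.6 and 63.1 CPM. The part of these differences in the results was not tested.

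No gene passed the test between treated and untreated control cells. With edgeR's quasi-likelihood test and Benjamini-Hochberg adjustment, 0 of 11968 genes (0.0%) had an adjusted p under 0.05. This fit had no term for the set, so its standard errors and p-values, given per gene below, include the spread between sets. An unadjusted p under 0.05 was found for 82 genes (0.685%), 16 of them higher (0.134%) and 66 lower (0.551%) in treated cells, and DESeq2's Wald test gave 0 and 83 genes in the same way. In simulated counts with no set effect, edgeR gave such a p for 4.76% of unchanged genes, so 0.685% is no excess. Among all genes tested, 51.4% had a positive and 48.0% a negative log2 fold change, and the median was 0.01. A miss in a comparison of 2 libraries with 2 does not show that treated and untreated cells were alike.

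More genes were called between the sets than between the treatments. A fit of the 4 control libraries alone, with treatment and set as terms, was used here. The 2 libraries of a set share a sort, so each set is 1 sort. The p-values between sets therefore do not measure the spread between sorts. In it 1053 of 10554 genes (9.98%) passed edgeR's test between set 4 and set 2, 372 of them higher (3.52%) and 681 lower (6.45%) in set 4, and DESeq2's test called 226 genes. In a fit of that form 0 of the same 10554 genes passed between treatments, and 494 had an unadjusted p under 0.05. The median size of the log2 difference was 0.36 between sets and 0.23 between treatments. Libraries of the same set correlated at Pearson's r = 0.971 in set 2 and 0.959 in set 4 over log2 CPM of 11968 genes, and libraries of different sets at 0.925 to 0.930. Genes are not independent replicates, and these coefficients describe the libraries only.

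The treated minus untreated differences of set 2 and set 4 did not run together across genes. They had the same direction in 48.3% of the 11968 genes tested, with Pearson's r = -0.03 and a Spearman coefficient of -0.02 across genes. Among the 8022 genes at 10 CPM or more, 69 genes (0.86%) were past 1.5-fold higher in both sets and 69 (0.86%) past 1.5-fold lower in both, while 98 (1.22%) were higher in set 2 and lower in set 4 and 52 (0.648%) the reverse. Set 4 had 1152 genes past 2-fold and set 2 had 604. In 12.3% of all genes tested both treated libraries lay above both untreated ones, and in 11.6% both lay below.

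**Figure D1:**
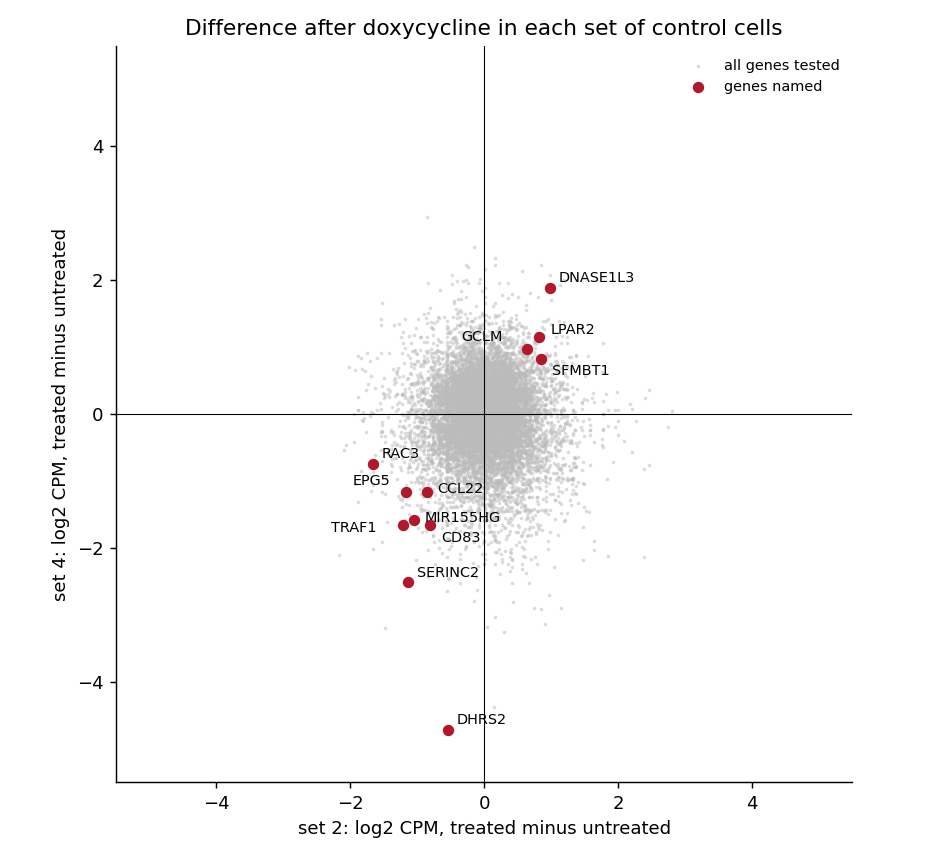
Each point is a gene, with its log2 CPM difference between treated and untreated control cells in set 2 on the x axis and in set 4 on the y axis (11968 genes, prior count 3). The cloud shows no clear slope (r = -0.03). The genes named in red lie away from its centre, with DHRS2 at -0.54 in set 2 and -4.71 in set 4. They were picked with use of these values, so their same direction in both sets is no result.

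Several targets of NF-kB had lower values in treated cells of both sets, although none passed the test. Of 15 tested, 8 were lower in both sets and 1 was higher in both. Among all genes tested, 48.3% had the same direction in both sets, higher or lower. NF-kB is a family of transcription factors that B cells use downstream of CD40, Toll-like and antigen receptors. CCL22, a chemokine that activated B cells and dendritic cells secrete, was at 156 CPM untreated and 85.6 CPM treated in set 2 and at 138 and 61.5 CPM in set 4. The groups did not overlap, and the log2 fold change was -1.0 ± 0.42 (SE; edgeR unadjusted p = 0.0306, adjusted p = 1). MIR155HG, the host gene of the microRNA miR-155, was at 22.3 and 10.2 CPM in set 2 and at 28.6 and 8.79 CPM in set 4, a log2 fold change of -1.41 ± 0.58 (unadjusted p = 0.0289). CCL22 and MIR155HG are not on the list of 20 NF-kB targets, so the counts above leave them out. They were chosen after their values were seen.

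miR-155 is made from this host RNA and is known for its role in activated B cells. Its mature strand from the 5′ arm lies on chr21:25573983-25574006 (GRCh38.p14, plus strand) and is shown, from RefSeq, because its host gene is named above. Capitals mark the seed, bases 2 to 8. The mature microRNA was not measured here.
hsa-miR-155-5p: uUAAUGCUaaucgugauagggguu

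Listed NF-kB targets named by rule had the same order. CD83, a surface marker of activated B and dendritic cells, was at 75.5 and 42.6 CPM in set 2 and at 53.1 and 16.1 CPM in set 4, untreated first in each pair, with a log2 fold change of -1.12 ± 0.52 (unadjusted p = 0.0466). TRAF1, an adaptor of TNF-family receptors, was at 14.7 and 5.77 CPM in set 2 and at 11.9 and 3.06 CPM in set 4 (-1.57 ± 0.72, unadjusted p = 0.0448). Both treated libraries were below both untreated ones for these genes. ICAM1, an adhesion receptor, was at 29.9 and 17.9 CPM in set 2 and at 49.9 and 23.3 CPM in set 4 (-0.96 ± 0.59, unadjusted p = 0.128). REL, a subunit of NF-kB itself, was at 20.9 and 10.2 CPM in set 2 and at 13.0 and 12.6 CPM in set 4, so its difference came from set 2. Of the 15 NF-kB targets tested, of 20 listed, 0 passed, 11 had a negative and 4 a positive log2 fold change, and 6 had both treated libraries below both untreated ones against 11.6% of all genes. Their median was -0.23, with -0.15 in set 2 and -0.38 in set 4, beside 0.01 for all genes.

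**Figure D2:**
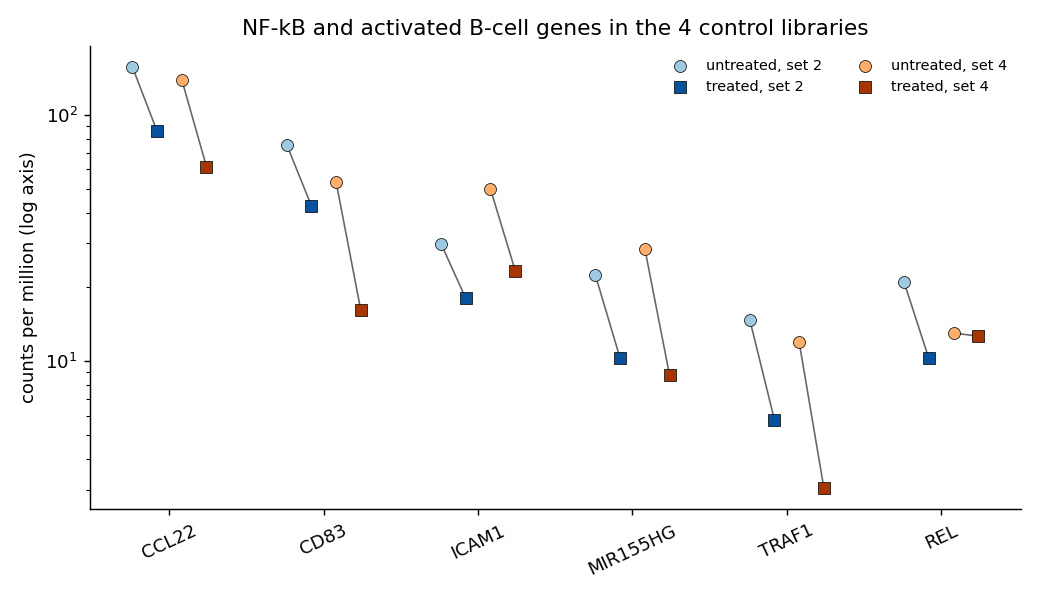
CPM on a log axis for 6 genes in the 4 control libraries, circles untreated and squares treated, with a line joining the libraries of each set. For CCL22, CD83, ICAM1, MIR155HG and TRAF1 the line slopes down in both sets, and for REL it is nearly level in set 4 (13.0 and 12.6 CPM).

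The promoter windows of CCL22, which is outside the list, and REL, which is on it, are shown because both hold the NF-kB consensus. Each window is 300 bases of GRCh38.p14 from RefSeq, 250 before the start site and 50 after, plus strand, and capitals mark matches to the consensus on either strand. CCL22 lies at chr16:57358533-57358832 and REL at chr2:60881324-60881623; in REL, matches on both strands overlap.
CCL22: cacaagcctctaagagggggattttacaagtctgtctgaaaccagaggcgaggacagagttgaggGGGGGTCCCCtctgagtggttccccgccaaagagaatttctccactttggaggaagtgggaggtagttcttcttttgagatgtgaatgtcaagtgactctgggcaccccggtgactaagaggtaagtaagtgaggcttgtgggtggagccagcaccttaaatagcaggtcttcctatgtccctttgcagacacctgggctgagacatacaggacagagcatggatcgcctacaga
REL: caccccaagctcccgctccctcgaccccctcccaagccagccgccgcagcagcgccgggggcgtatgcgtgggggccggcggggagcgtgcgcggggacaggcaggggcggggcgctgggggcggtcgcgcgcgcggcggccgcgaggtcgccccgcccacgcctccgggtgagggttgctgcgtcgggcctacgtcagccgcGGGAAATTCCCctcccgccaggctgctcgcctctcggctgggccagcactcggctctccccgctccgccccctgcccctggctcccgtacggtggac

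The consensus was found in 5.91% of 35116 RefSeq promoter windows and in 7 of the 16 listed NF-kB targets with a window in that table. It was not found in the first listed windows of CD83, TRAF1, ICAM1 and MIR155HG. Other motifs were searched for in the same way. The sterol regulatory element TCACNCCAC was in 0 of 16 windows of cholesterol enzymes and 1 of 16 of sterol regulators and carriers, against 1.13% of all windows. The antioxidant response element TGACNNNGC was in 4 of 11 windows of NRF2 genes, against 13.3%. A match is a description of these letters only.

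Genes at 10 CPM or more were named by the smallest p among those with both treated libraries above, or both below, both untreated ones. Non-overlap of the groups was thus a condition of entry and is no result. On the higher side, SFMBT1, a Polycomb-related chromatin protein, was at 16.6 and 30.8 CPM in set 2 and at 15.5 and 28.3 CPM in set 4 (log2 fold change 0.88 ± 0.35, unadjusted p = 0.0259). LPAR2, a receptor for lysophosphatidic acid, was at 20.9 and 37.8 CPM in set 2 and at 13.7 and 31.7 CPM in set 4 (1.01 ± 0.41, unadjusted p = 0.0277). By that rule the treated libraries were above the untreated ones for both genes. GCLM, a subunit of the enzyme that starts glutathione synthesis, was at 27.5 and 43.3 CPM in set 2 and at 28.2 and 56.5 CPM in set 4 (0.84 ± 0.35, unadjusted p = 0.0292). DNASE1L3, a secreted nuclease that digests chromatin DNA, was at 8.07 and 17.0 CPM in set 2 and at 7.59 and 30.9 CPM in set 4 (1.61 ± 0.66, unadjusted p = 0.0296). RALGPS2, ZSWIM7, TTLL4, YWHAH, CTNS and TM2D3 followed, with log2 fold changes of 0.66 to 0.82. CTNS is the lysosomal cystine carrier. GLA, a lysosomal galactosidase, was at 7.59 and 13.5 CPM in set 2 and at 8.31 and 16.8 CPM in set 4, and the list of lysosome and autophagy genes that holds it, without CTNS, had a median of 0.06 over 23 tested genes, 14 of them positive.

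On the lower side, SERINC2, a membrane protein, was at 10.4 and 4.17 CPM in set 2 and at 26.8 and 3.82 CPM in set 4 (log2 fold change -2.22 ± 0.76, unadjusted p = 0.0116). RAC3, a small GTPase, was at 17.6 and 4.81 CPM in set 2 and at 11.6 and 6.50 CPM in set 4 (-1.36 ± 0.51, unadjusted p = 0.0175). The larger difference came from set 4 for SERINC2 and from set 2 for RAC3. EIF4EBP1, a repressor of cap-dependent translation, was at 18.0 and 12.8 CPM in set 2 and at 41.2 and 13.4 CPM in set 4 (-1.18 ± 0.42). EPG5, which tethers autophagosomes to lysosomes, is not among the 10 lower genes of that rule and was named as 1 of the 5 smallest p of all. EPG5 was nearly the same in both sets, at 14.2 and 5.77 CPM in set 2 and 13.4 and 5.35 CPM in set 4 (-1.30 ± 0.43, unadjusted p = 0.00867). SPN, RARA, TMEM135, AP5M1, FCRL3, XPO4 and COQ10A lay between -0.93 and -1.44. RARA, the retinoic acid receptor alpha, was at 14.7 and 9.61 CPM in set 2 and at 27.1 and 11.1 CPM in set 4, and RXRA, its dimer partner, at 9.49 and 5.45 CPM and at 15.2 and 9.55 CPM. Of 7 retinoid genes tested, 6 had a negative value, and their median was -0.40.

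Among the 5 genes with the smallest p of all, 4 had few reads. GABRD, a GABA receptor subunit, had 7 reads untreated and 1 treated in set 2 and 9 and 0 in set 4, a ratio of 18.8 for untreated over treated with a 95% exact counting interval of 2.93 to 790. IGLL5, a lambda-like immunoglobulin gene, had the same sums of 16 and 1 reads. PLXNC1, a semaphorin receptor, was at 3.32 and 1.60 CPM in set 2 and at 7.23 and 1.91 CPM in set 4 (-1.59 ± 0.52, unadjusted p = 0.00812). DHRS2, a short-chain dehydrogenase, had 102 reads in untreated set 4 and 2, 1 and 1 in the other control libraries, so its log2 fold change of -5.61 ± 1.41 (unadjusted p = 0.00142) rested on 1 library.

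mRNAs of the mitochondrial genome were not shifted together. Of the 13 protein-coding genes of that genome, 0 passed, 9 had a positive and 4 a negative log2 fold change, and their median was 0.07. In set 2 the median was 0.35 with 11 higher in treated cells, and in set 4 it was -0.04 with 5 higher. MT-ATP6, a subunit of the ATP synthase, was at 2565 and 4455 CPM in set 2 and at 3009 and 5382 CPM in set 4 (0.82 ± 0.48, unadjusted p = 0.111), and both treated libraries were above both untreated ones. MT-ND1, a subunit of complex I, was at 1513 and 2160 CPM and at 2064 and 2218 CPM (0.29 ± 0.41), and MT-ND6, another subunit of it, was low, at 7.12 and 19.2 CPM and at 12.7 and 22.2 CPM (1.05 ± 0.97). MT-CO3, a subunit of complex IV, had the opposite order, at 12210 and 8487 CPM in set 2 and 14610 and 12010 CPM in set 4 (-0.39 ± 0.38, unadjusted p = 0.325). MT-CO1 was at 916 and 1397 CPM and at 1463 and 1942 CPM (0.49 ± 0.54). MT-ND2 and MT-CYB differed in opposite directions in the sets, MT-ND2 by 0.27 in set 2 and -0.82 in set 4 and MT-CYB by 0.60 and -0.41. The values of MT-ND3, MT-ND4, MT-ND5 and MT-CO2 also had opposite signs in the sets, MT-ND4L was positive in both and MT-ATP8 negative in both.

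**Figure D3:**
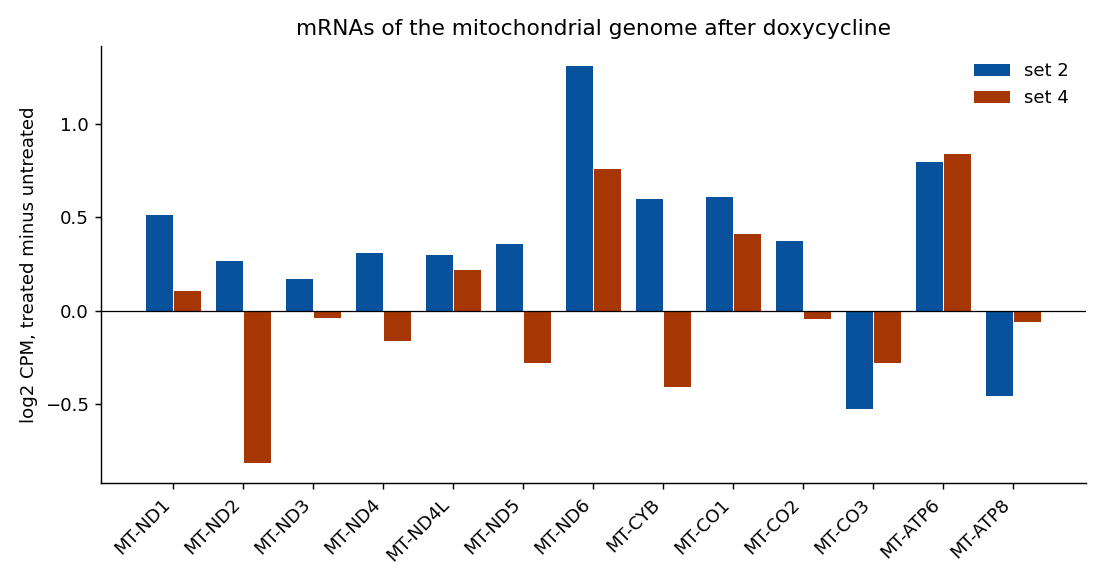
Bars give the log2 CPM difference between treated and untreated control cells for the 13 protein-coding genes of the mitochondrial genome, in set 2 and set 4. MT-ATP6, MT-ND6 and MT-CO1 are above 0 in both sets and MT-CO3 below 0 in both, and MT-ND2 is at 0.27 in set 2 and -0.82 in set 4.

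Nuclear genes of the same organelle showed no common shift either. Of 76 proteins of the mitochondrial ribosome, 39 were positive and 37 negative, and the median was 0.02. MRPL19 of the large subunit was at 11.4 and 27.2 CPM in set 2 and at 13.4 and 17.6 CPM in set 4 (0.85 ± 0.45), and MRPS17 of the small subunit at 17.1 and 13.1 CPM and at 16.3 and 9.17 CPM (-0.57 ± 0.38). Of 31 factors and tRNA synthetases of mitochondrial translation, 15 were positive and 16 negative. NARS2 and YARS2, which load asparagine and tyrosine onto mitochondrial tRNAs, were lower in both treated libraries, NARS2 at 7.12 and 4.49 CPM in set 2 and 7.95 and 0.382 CPM (1 read) in set 4, and YARS2 at 15.2 and 8.01 CPM and at 11.6 and 7.26 CPM. MALSU1 and SARS2, named by the same rule, were higher in both. MALSU1 was at 30.4 and 47.8 CPM and at 31.1 and 38.2 CPM, and SARS2 at 7.59 and 9.29 CPM and at 7.23 and 15.3 CPM. Of the 31 genes, 6 had both treated libraries above both untreated ones and 8 had both below, against 12.3% and 11.6% of all genes. TFB2M, which starts mitochondrial transcription, was at 7.12 and 5.45 CPM and at 11.2 and 3.06 CPM (-1.10 ± 0.61), within a list of 25 genes for mitochondrial genome expression whose median was -0.01. AFG3L2, a protease of the inner membrane, was at 178 and 221 CPM and at 167 and 247 CPM (0.44 ± 0.30), and the median of 20 mitochondrial chaperones and proteases was 0.01.

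Respiratory subunits from the nucleus had medians of 0.03 over 35 genes of complex I and 0.02 over 39 genes of complexes II to V. SDHA, the catalytic subunit of complex II, was at 122 and 172 CPM in set 2 and at 115 and 187 CPM in set 4 (0.60 ± 0.31, unadjusted p = 0.0779). ATF4 and CHOP targets, 36 genes, had a median of -0.03, with -0.15 in set 2 and 0.08 in set 4. That median was -0.40 without treated set 4 and 0.35 without treated set 2. CHAC1, which breaks down glutathione and is induced by ATF4, was lower in treated cells, at 106 and 43.6 CPM in set 2 and at 82.8 and 47.4 CPM in set 4 (-1.05 ± 0.53, unadjusted p = 0.0651). VLDLR, a lipoprotein receptor on the same list, was at 5.70 and 4.49 CPM and at 19.9 and 6.50 CPM (-1.24 ± 0.59). None of the genes on these 3 lists passed the test.

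Enzymes of cholesterol synthesis had lower values in treated cells, mainly in set 4. Of 20 enzymes tested, 0 passed, 18 had a negative and 2 a positive log2 fold change, and 11 had both treated libraries below both untreated ones, against 11.6% of all genes. Their median was -0.44, with -0.07 in set 2 and -0.58 in set 4. MSMO1, a sterol demethylase, was at 32.3 and 26.3 CPM in set 2 and at 38.3 and 11.5 CPM in set 4 (-0.90 ± 0.43, unadjusted p = 0.0579). IDI1, the isomerase of isopentenyl diphosphate, was at 56.5 and 52.9 CPM and at 85.7 and 30.9 CPM (-0.76 ± 0.38). For MSMO1 and IDI1 most of the difference came from set 4. DHCR7, a reductase of the last steps, was at 91.1 and 60.6 CPM and at 119 and 73.3 CPM (-0.65 ± 0.34), and FDFT1, squalene synthase, at 230 and 182 CPM and at 242 and 147 CPM (-0.52 ± 0.34). Among 18 regulators and carriers of sterols, 13 were negative with a median of -0.15. SREBF1, which encodes a transcription factor of lipid synthesis, was at 23.7 and 20.8 CPM and at 35.4 and 18.7 CPM (-0.58 ± 0.38).

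Genes of protein folding in the endoplasmic reticulum had mostly negative values. Of 23 genes of the unfolded protein response, 0 passed, 19 were negative and 4 positive, and their median was -0.32, with -0.18 in set 2 and -0.38 in set 4; without untreated set 4 the median was 0.18. HSP90B1, the chaperone GRP94, was at 249 and 238 CPM in set 2 and at 488 and 232 CPM in set 4 (-0.65 ± 0.43). SDF2L1, a partner of the chaperone BiP, was at 150 and 98.7 CPM and at 175 and 100 CPM (-0.70 ± 0.59), and CALR, calreticulin, at 1196 and 889 CPM and at 1377 and 994 CPM (-0.45 ± 0.52). These 3 genes are among the 4 of 23 with both treated libraries below both untreated ones, against 11.6% of all genes. Between the sets, 10 of the 23 genes were called higher in set 4, against 3.52% of all genes.

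Genes of mitosis had higher values in treated cells of both sets, within a large difference between the sets. Of 26 genes of G2 and mitosis, 0 passed, 22 were positive and 4 negative, with a median of 0.27 (0.13 in set 2 and 0.53 in set 4), and 12 of the 26 were called higher in set 2 than in set 4, against 6.45% of all genes. Only 2 had both treated libraries above both untreated ones, against 12.3% of all genes, and without untreated set 4 the list's median was -0.16. CCNB2, cyclin B2, was at 61.2 and 85.9 CPM in set 2 and at 23.1 and 66.5 CPM in set 4 (0.86 ± 0.77). AURKB, a mitotic kinase, was at 348 and 417 CPM and at 137 and 302 CPM (0.57 ± 0.71), and KIF23, a motor of cell division, at 12.3 and 18.3 CPM and at 5.78 and 10.3 CPM (0.67 ± 0.76). The treated library of set 4 was below the untreated library of set 2 for AURKB and KIF23. Genes of G1/S, 26 in number, had a median of 0.18, with 0.24 in set 2 and 0.03 in set 4.

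Median differences of growth genes had opposite signs in the sets. MYC targets of the nucleolus, 30 genes, had a median of -0.31 in set 2, with 25 negative, and 0.25 in set 4, with 21 positive. Proteins of the small ribosomal subunit, 30 genes, had medians of -0.14 and 0.24, and those of the large subunit, 44 genes, medians of -0.15 and 0.11. Glycolytic genes, 21 in number, had medians of -0.22 and 0.05, with 11 positive and 10 negative in set 4. Of the 21, 13 had the same direction in both sets, against 48.3% of all genes. Of the 20 tested between the sets, 10 were called higher in set 2, against 6.45% of all genes. Over both sets the medians of these 4 lists lay between -0.12 and 0.06, and 0 genes passed.

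**Figure D4:**
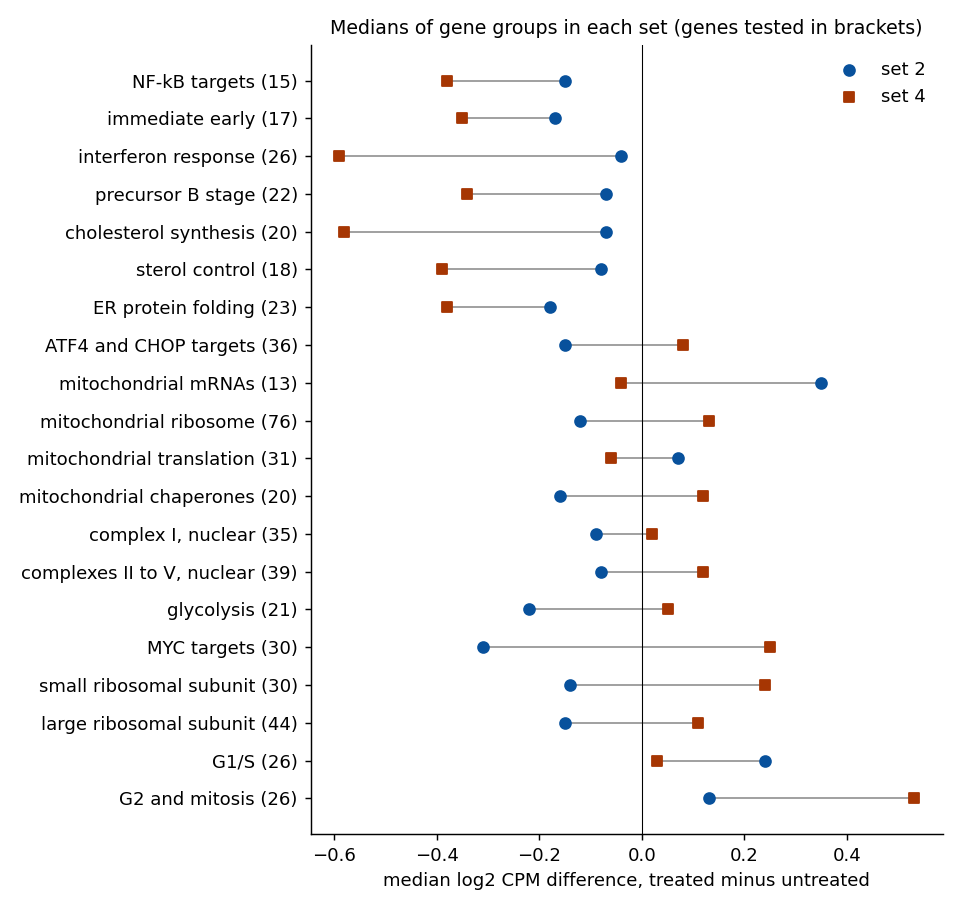
Points give the median log2 CPM difference between treated and untreated control cells for 20 gene groups, circles for set 2 and squares for set 4, with the number of genes tested in brackets. NF-kB targets (-0.15 and -0.38), cholesterol synthesis (-0.07 and -0.58) and the unfolded protein response, labelled ER protein folding (-0.18 and -0.38), lie below 0 in both sets, G2 and mitosis above 0 in both (0.13 and 0.53), and MYC targets on either side (-0.31 and 0.25).

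Some genes of precursor B cells were highest in the untreated library of set 4. Of 22 such genes tested on the list, 0 passed, 14 were negative and 8 positive in set 4, 12 negative and 10 positive in set 2, and 3 had both treated libraries below both untreated ones, against 11.6% of all genes. Their median was -0.30, and 0.07 without untreated set 4. VPREB1, which with IGLL1 encodes the surrogate light chain of the pre-B-cell receptor, was at 219 CPM there, against 26.1 CPM untreated and 34.0 CPM treated in set 2 and 82.5 CPM treated in set 4. IGLL1 was at 284 CPM there, against 74.0, 69.9 and 90.5 CPM in the same order of libraries. CD9, a membrane protein of precursor B cells, was at 207 CPM there, and at 122, 144 and 47.8 CPM in the other libraries, and ERG, a transcription factor on another list, at 13.0 CPM against 0.474, 0.961 and 2.29 CPM. Treated minus untreated, VPREB1 differed by 0.37 in set 2 and by -1.40 in set 4, so the direction depended on the set. GZMK, a granzyme, had 101 reads in untreated set 4 and 4, 0 and 8 in untreated set 2, treated set 2 and treated set 4, and MYBPH, a muscle protein gene, 124 reads and 1, 2 and 3. IGLC2 and IGF2BP1, both expressed in SH2 cells, were at 0.723 CPM and 0 reads in that library. VPREB1, IGLL1, GZMK and MYBPH were chosen after their values were seen.

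**Figure D5:**
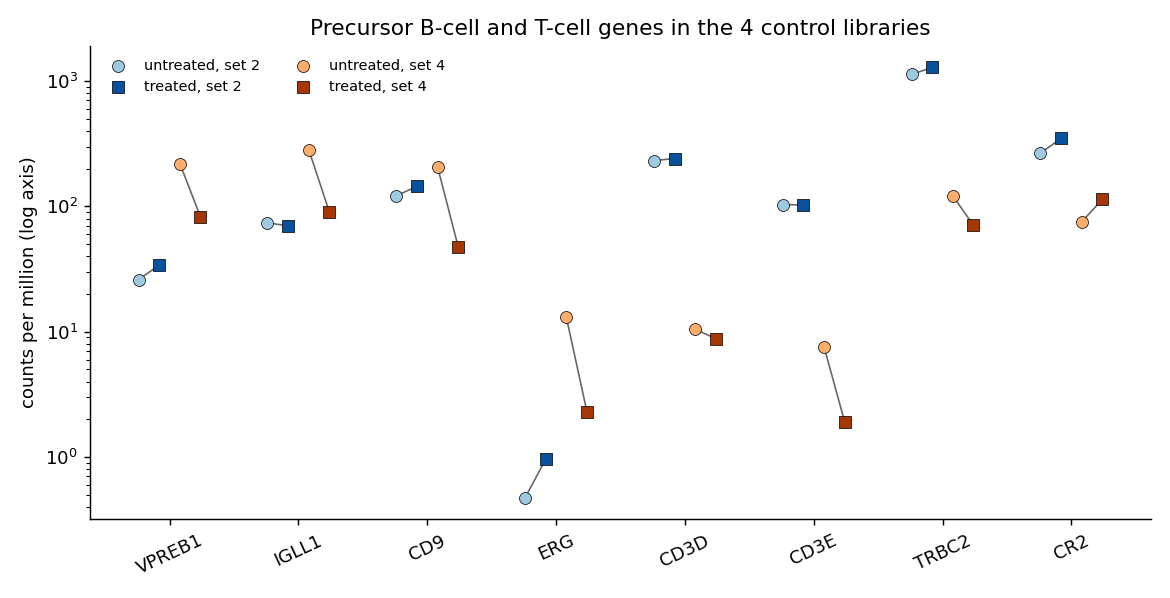
CPM on a log axis for precursor B-cell genes (VPREB1, IGLL1, CD9), ERG from the list of B-lineage transcription factors, T-cell genes (CD3D, CD3E, TRBC2) and CR2, a complement receptor of B cells. The 4 control libraries are shown, circles untreated and squares treated, with a line joining each set. VPREB1, IGLL1, CD9 and ERG are highest in untreated set 4, and the T-cell genes are at least at 102 CPM in set 2 and at most at 121 CPM in set 4.

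The genes in the series title did not pass the test in control cells. IGF2BP1, the target of the SH2 shRNA, had 3 reads in untreated and 4 in treated control libraries together, and averaged 31.1 CPM in untreated SH2 cells, so the control libraries hold too few reads to show a response. HOXB4, a homeobox transcription factor, was at 35.6 and 20.2 CPM in set 2 and at 11.6 and 29.8 CPM in set 4, which are opposite directions. MYB, a transcription factor of early blood cells, was at 281 and 337 CPM and at 352 and 274 CPM. ALDH1A1, an aldehyde dehydrogenase, was at 7.12 and 8.01 CPM and at 9.76 and 10.3 CPM.

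The response of SH2 cells was set against that of control cells by an interaction term. edgeR's test called 0 of 11968 genes (0.0%), with 116 (0.969%) at an unadjusted p under 0.05, and DESeq2's test called 3. RPS12, a protein of the small ribosomal subunit, was at 10230 and 12770 CPM in control set 2 and at 6677 and 7525 CPM in control set 4, untreated first, and averaged 8833 CPM untreated and 1408 CPM treated in SH2 cells. The difference between the responses was -2.91 on the log2 scale (edgeR unadjusted p = 0.00019), with an adjusted p of 0.00354 in DESeq2 and 0.0451 in edgeR with the set as a block. Activated B-cell genes could not be compared in this way for CCL22, which averaged 0.0754 CPM in untreated SH2 cells. For CD83 the difference between responses was 1.64 (unadjusted p = 0.0227) and for TRAF1 2.98 (unadjusted p = 0.00666), and neither passed. Both genes were named by their small p in control cells, and the control response enters this difference. Its sign and p are therefore no separate result.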

How the data were processed

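Per the labels' protocols, libraries were made with a QuantSeq forward kit, which reads a transcript at its 3′ end. The deposited values are raw read counts per gene (64253 gene identifiers in each library, and 5 summary lines that were left out). The submitters' processing notes name FastQC, STAR, HTSeq and DESeq2 and the build hg38, with no versions. Symbols came from the authors' deposited table for 26231 identifiers, and its 12 value columns were not used; other names and all coordinates of genes came from GENCODE on GRCh38.

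Counts were fitted with edgeR 4.0.16 in R 4.3.3 (quasi-likelihood, TMM scaling, genes kept by filterByExpr per group with a minimum count of 10). All 12 libraries were fitted together by group, so that they share 1 estimate of the spread; the test between sets used the 4 control libraries alone, with treatment and set as terms, over 10554 genes. P-values were adjusted by Benjamini-Hochberg over all genes tested (11968 in the fit of 12 libraries). CPM are on TMM-scaled library sizes, and log2 CPM used a prior count of 3. DESeq2 1.42.0 was an alternative, as were other scaling, no filter, the set as a block, control libraries alone and each library or set left out; leaving out a set was chosen after seeing the data. The fit was tested on simulated counts with no set effect. At an adjusted p under 0.05 it recovered 2 of 100 genes changed 2-fold and 44 of 100 changed 4-fold, and it called 6 unchanged genes. The control libraries do differ by set, and recovery in counts with a set effect was not tested.

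Set numbers were taken to pair libraries, since same-set libraries deviated together from their group means (correlation 0.499 in control cells, 0.188 to 0.663 in the SH2 sets). The main fit did not use this pairing, and the set as a block was an alternative. No pair of control libraries agreed within sampling noise (chi-square per degree of freedom 6.6 to 20.2). Depths of 2210291 to 3232769 assigned reads limit genes with few reads, and intervals cover counting error only.

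The members and the 44 gene lists were chosen with earlier results of these data known. The text takes its genes from the 10 with the smallest p on each side, the 5 smallest p of all, 4 per list, the mitochondrial mRNAs and the genes of the title. The 10 on each side had at least 10 CPM and both treated libraries above, or both below, both untreated ones. Genes outside this rule are said to be so or serve as markers. Some genes had no read in any library, and for them nothing is stated. Some genes are not reported here. Promoter windows and the microRNA came from RefSeq tables on GRCh38.p14, where a gene's first listed window was used.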

Additional observations from a re-analysis of the deposited data

How the results depend on the processing

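The count of genes past the threshold between treated and untreated control cells stayed at 0 with DESeq2, DESeq2's size factors, the control libraries alone and each library or set left out, with 76 to 494 genes at an unadjusted p under 0.05. With the set as a replicate block it was also 0 (208 at an unadjusted p under 0.05), and the block changed no call in that comparison. With no filter on low counts it was 3, all lower in treated cells: DHRS2 (log2 fold change -5.62, adjusted p = 0.000109), GZMK (adjusted p = 0.0148) and MYBPH (adjusted p = 5.05e-05), whose reads came mostly from untreated set 4. For the difference between SH2 and control responses the count was 3 with DESeq2, 3 with no filter and 1 with the replicate block, and RPS12 was among them each time; with each control library left out it was 0. DESeq2 called 226 genes between set 4 and set 2, against 1053. The causes were not tested.

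Without set 4 of the control cells, the fold changes of CD9 (0.26), ERG (0.96), VPREB1 (0.39), MYB (0.27), HOXB4 (-0.81), IGF2BP1 (-0.54), MT-ND2 (0.28) and MT-ND5 (0.36) changed sign, and without set 2 those of MT-CO2 (-0.04), MT-CYB (-0.41), MT-ND3 (-0.04) and MT-ND4 (-0.16). MT-ND5 was 0.03 with the replicate block and 0.02 in control libraries alone with that block. With each library left out in turn, values ran from -0.09 to 0.37 for ALDH1A1, -2.99 to 1.67 for ERG, -0.50 to 1.11 for HOXB4, -0.99 to 4.09 for IGF2BP1, -1.82 to 0.12 for IGLL1, -1.33 to 0.72 for MT-ATP8, -0.25 to 0.63 for MT-CO2, -0.31 to 0.52 for MT-CYB, -0.57 to 0.07 for MT-ND2, -0.19 to 0.35 for MT-ND3, -0.07 to 0.23 for MT-ND4, -0.22 to 0.78 for MT-ND4L, -0.58 to 0.75 for MT-ND5, -0.20 to 0.13 for MYB, -0.17 to 0.61 for RPS12 and -1.91 to 1.16 for VPREB1. The other genes with alternatives kept their direction in all of them, CCL22 between -1.26 and -0.78 and CD83 between -2.0 and -0.58, but some came close to 0: HSP90B1 (-0.05), IDI1 (-0.09), SREBF1 (-0.18), SPN (-0.22) and MSMO1 (-0.29) without set 4, REL (-0.04) without set 2, VLDLR (-0.05), AURKB (0.05), SYK (-0.21) and OAS1 (-0.25) without untreated set 4, MT-ND1 (0.09) and MT-CO1 (0.19) without untreated set 2, and KIF23 (0.20) and MT-CO3 (-0.16) without treated set 2. The smallest adjusted p of CD83 was 0.0817 and of SERINC2 and FCRL3 0.0734, all in control libraries alone with the block. The median of the NF-kB targets stayed between -0.40 and -0.15 and that of cholesterol synthesis between -0.64 and -0.07, while those of the unfolded protein response (-0.64 to 0.18), G2 and mitosis (-0.16 to 0.86), G1/S (-0.33 to 0.47), glycolysis (-0.50 to 0.41), sterol control (-0.40 to 0.03) and the mitochondrial mRNAs (-0.19 to 0.63) crossed 0.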

Other observations

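Further lists were described by their medians, and 0 genes of them passed the test. Of 26 interferon-response genes, 18 were negative and the median was -0.19, which was -0.04 in set 2 and -0.59 in set 4, and 0.05 without untreated set 4. Both treated libraries were below both untreated ones for 2 of the 26, against 11.6% of all genes. IFIT5, an RNA-binding antiviral protein, was at 5.70 and 3.21 CPM in set 2 and at 5.78 and 1.53 CPM in set 4, untreated first, and OAS1, an antiviral synthetase, at 8.07 and 5.13 CPM and at 19.2 and 8.40 CPM. Immediate early genes, 17 tested, had a median of -0.27 with 12 negative, and it was 0.13 without untreated set 2. Enzymes of fatty acid synthesis, 13 tested, had a median of 0.27 with 9 positive (0.15 in set 2, 0.07 in set 4, and 0.01 without treated set 2), and 2 of them had both treated libraries above both untreated ones, against 12.3% of all genes. Lists under p53 (22 genes, median 0.02), NRF2 (12 genes, -0.03), iron (15 genes, -0.02), metal response (15 genes, -0.06), heat shock (13 genes, -0.09) and the BCL2 family (15 genes, -0.07) lay near the median of all genes, 0.01. SYK, a kinase downstream of the B-cell receptor, was at 69.8 and 42.0 CPM in set 2 and at 141 and 78.3 CPM in set 4, with -0.81 ± 0.47 (edgeR unadjusted p = 0.109).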
